A study of Ovis aries with 13 samples.

Results

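Glucose enters cells through facilitative carriers of the SLC2A family, and lactate crosses membranes with a proton through carriers of the SLC16A family. SLC2A1 is the basal glucose carrier of many tissues and is also known from red cells and the endothelium. SLC2A3 has a high affinity for glucose and is best known from neurons. SLC2A4 is the carrier that insulin moves to the surface of muscle and fat cells. SLC16A1 carries lactate, pyruvate and ketone bodies in both directions. The fetal heart is known to rely on glucose and lactate, and the heart after birth turns increasingly to fatty acids.

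These 4 transporter genes were taken from an Agilent array of sheep transcripts, on which 897 genes could be named. They were represented by 8 probes of the 15008 on the array, with 2 probes for each gene. Probes of SLC2A3 and SLC16A1 carried those symbols in the files. Probes of SLC2A1 and SLC2A4 carried the older names GLUT-1 and glut4, and were assigned by those names and their descriptions.

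Pieces of left ventricle came from 7 newborn lambs (postnatal day 1) and 6 sheep fetuses (gestational day 142), with 1 array for each animal. No treatment or genetic change is given for either group. The newborn group held 3 males and 4 females, and the fetal group 4 males and 2 females. The arrays lay on 2 slides, with 3 newborn and 4 fetal arrays on slide 1 and 4 newborn and 2 fetal arrays on slide 2. By the labels 9 animals carry 1 of 4 animal numbers that recur within their group under different letters, with no word on what that means.

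Levels are given as log2 of the processed spot signal relative to the 75th percentile of the same array, so that 0 is that percentile. That percentile lay between 219 and 349 signal units on the newborn arrays and between 241 and 367 on the fetal arrays. Newborn 6 lay between the groups on the first principal component of all tested probes, at -9.00, against 10.08 to 35.07 for the other newborn arrays and -29.07 to -20.42 for the fetal arrays. The slow myosin heavy chain MYH7, a gene of ventricular muscle cells, was well above background on 7 of 7 newborn and 6 of 6 fetal arrays. It was the only one of 12 cardiomyocyte markers found on the array by name.

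The probe letters show which values are separate measurements of a gene and which are nearly the same measurement made again. The first 30 of the 60 bases of each probe are given below, 5′ to 3′ as in the array files, with the run that both probes of a gene share in capitals where that run is 20 bases or longer.
SLC2A1 A_70_P026061: AATCTGTAGGGGCGGACTATGACTAAGGAc
SLC2A1 A_70_P026062: tAATCTGTAGGGGCGGACTATGACTAAGGA
SLC2A4 A_70_P041221: GGCAGGGAGAAAAAACTGAAGGTCTGTTGt
SLC2A4 A_70_P041222: gGGCAGGGAGAAAAAACTGAAGGTCTGTTG
SLC2A3 A_70_P051106: ggaatttttcccagttctcagtgaccaggt
SLC2A3 A_70_P051107: attttggttctaagttctcaccattccctc
SLC16A1 A_70_P026261: gccaccactgtaaagaaaaggaagtctaag
SLC16A1 A_70_P026262: tcctaattctcgggggcttactattaaact
The 2 SLC2A1 probes share a run of 59 bases and are offset by 1 base, and the same holds for the 2 SLC2A4 probes. The 2 SLC2A3 probes start 156 bases apart and share at most 8 bases in a row. The 2 SLC16A1 probes start 68 bases apart and share at most 7. No probe of any other gene on the array shares a run of 20 bases with these 8, and between the 4 genes the longest shared run was 7 bases.

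In newborn ventricles the 3 glucose carriers were lower than in fetal ventricles, and the brighter probe of the lactate carrier SLC16A1 did not pass the test. By their brightest probes SLC2A4 fell 1.61-fold and SLC2A3 fell 1.39-fold. SLC2A1 fell 2.42-fold on the processed signal, near background and well above it on 4 of 7 newborn arrays. With a normexp background correction at the median of the array and an offset of 50 signal units its log2 change was -0.33, the smallest of the 3, against -0.70 for SLC2A4 and -0.52 for SLC2A3. That offset is more than the SLC2A1 signal on most arrays and shrinks dim signals by construction. Without the offset, an alternative chosen after the data were seen, the changes were -0.91 for SLC2A1, -0.68 for SLC2A4 and -0.50 for SLC2A3. Of the 8 probes, 7 passed and were lower in newborns and 0 were higher, in limma with Benjamini-Hochberg adjustment over 10257 tested probes and a threshold of 0.05. Over all tested probes 11.1% passed and were lower in newborns and 12% passed and were higher, and the median change was 0.03. On 5 of the 8 probes every newborn array lay below every fetal array, against 3.51% of all tested probes, and every newborn array lay above every fetal array on 0 of them, against 3.38%. The probes are not separate evidence where they share their bases.

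**Figure D1:**
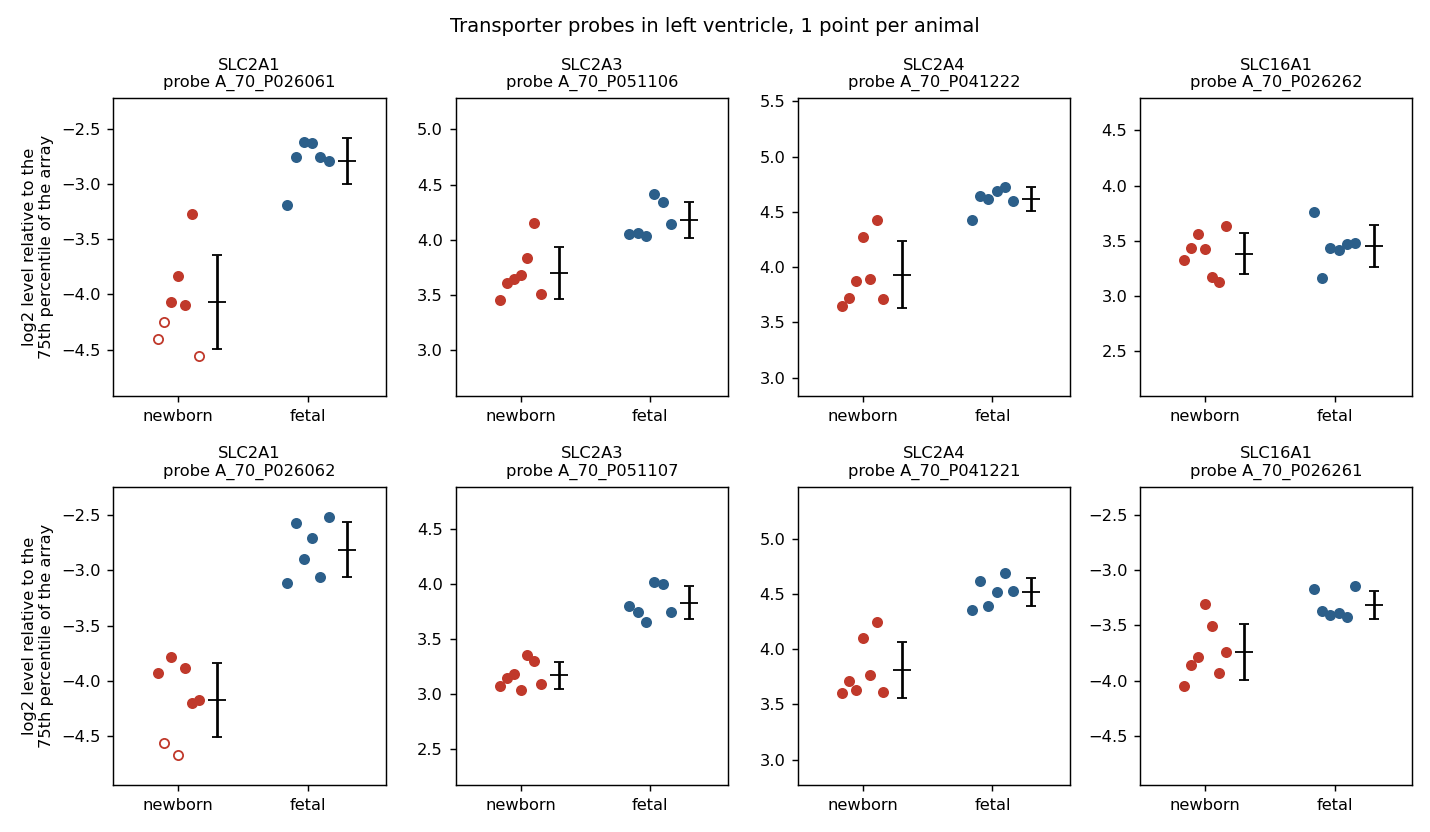
Levels of the 8 transporter probes in each animal, newborn on the left and fetal on the right, as log2 relative to the 75th percentile of the array, on axes of equal span. Open points are arrays on which the probe was not well above background, and the bars give the mean and SD. The SLC2A1, SLC2A3 and SLC2A4 panels sit lower for newborns, with 1 newborn within the fetal range for SLC2A3 A_70_P051106, and the groups overlap for SLC16A1 A_70_P026262.

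SLC2A1, the basal carrier, gave signals near the background. On probe A_70_P026061 the 7 newborn arrays had a lowest log2 level of -4.56, a median of -4.10 and a highest of -3.27. The 6 fetal arrays had a lowest of -3.19, a median of -2.76 and a highest of -2.62. The groups did not overlap, and newborn 6 and fetal 1 were the arrays that came closest to each other. The log2 change was -1.28 (SE 0.178, adjusted p = 0.000546, 95% interval -1.66 to -0.90).

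On the SLC2A1 probe A_70_P026062 the newborn levels had a lowest of -4.67, a median of -4.18 and a highest of -3.79. The fetal levels had a lowest of -3.12, a median of -2.80 and a highest of -2.52. The groups again did not overlap, and the log2 change was -1.36 (SE 0.16, adjusted p = 0.000193). Before scaling, A_70_P026061 gave 12.1 to 26.1 signal units on newborn arrays and 30.4 to 54.3 on fetal arrays. It was well above background on 4 of 7 newborn and 6 of 6 fetal arrays, and A_70_P026062 on 5 of 7 newborn and 6 of 6 fetal arrays. The size of the fall depended on how background was handled. For A_70_P026061 it was -0.91 with a normexp correction at the median background of the array and no offset, an alternative chosen after the data were seen. With that correction and an offset of 50 signal units, which is more than the SLC2A1 signal on most arrays, it was -0.33 (adjusted p = 0.0134). With normexp at the background of each spot and the same offset it was -0.41 and did not pass (adjusted p = 0.83).

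SLC2A3, the high-affinity carrier, was a bright signal in both groups. On probe A_70_P051106 the newborn levels had a lowest of 3.45, a median of 3.64 and a highest of 4.15. The fetal levels had a lowest of 4.04, a median of 4.10 and a highest of 4.42. Of the 7 newborns 6 lay below every fetus, and newborn 6 lay within the fetal range. The log2 change was -0.48 (SE 0.12, adjusted p = 0.0117, 95% interval -0.73 to -0.22), and -0.55 without newborn 6.

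The other SLC2A3 probe, A_70_P051107, reads a different stretch of the transcript. Its newborn levels had a lowest of 3.04, a median of 3.15 and a highest of 3.36, and its fetal levels a lowest of 3.66, a median of 3.77 and a highest of 4.02. Here the groups did not overlap, and newborn 5, not newborn 6, was the highest newborn. The log2 change was -0.66 (SE 0.0928, adjusted p = 0.000583, 95% interval -0.86 to -0.46). The intervals of the 2 probes overlap, and the difference between their changes was not tested.

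SLC2A4, the insulin-regulated carrier, gave processed signals of 3211 to 5409 units on newborn arrays and 5969 to 9186 on fetal arrays with its brighter probe. On that probe, A_70_P041222, the newborn log2 levels had a lowest of 3.65, a median of 3.87 and a highest of 4.42. The fetal levels had a lowest of 4.42, a median of 4.63 and a highest of 4.73. The groups touched without overlapping, with newborn 6 at 4.424 and fetal 1 at 4.425. The log2 change was -0.68 (SE 0.13, adjusted p = 0.00303, 95% interval -0.96 to -0.41), and -0.77 without newborn 6.

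Its near-duplicate A_70_P041221 ran from 3.60 to 4.24 in newborns and from 4.35 to 4.69 in fetuses, with a log2 change of -0.70 (SE 0.121, adjusted p = 0.00176). On both SLC2A4 probes newborn 4 and newborn 6 were the highest newborns. Since those probes share all but 1 of their bases, that agreement is between repeated readings of the same stretch.

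SLC16A1, the lactate and pyruvate carrier, differed between its probes. On the bright probe A_70_P026262 the newborn levels had a lowest of 3.13, a median of 3.43 and a highest of 3.64. The fetal levels had a lowest of 3.17, a median of 3.46 and a highest of 3.76. The groups overlapped over most of their range, and the log2 change was -0.07 (SE 0.113, adjusted p = 0.671). Its 95% interval, -0.31 to 0.17, leaves room for a change of either sign in that range.

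The dim SLC16A1 probe A_70_P026261 gave 15.5 to 25.3 signal units on newborn arrays and 23.0 to 37.1 on fetal arrays, while the bright probe gave 2203 to 4130 on newborn and 2577 to 3765 on fetal arrays. Its log2 levels in newborns had a lowest of -4.05, a median of -3.79 and a highest of -3.30, and in fetuses a lowest of -3.43, a median of -3.38 and a highest of -3.14. Of the 7 newborns 6 lay below every fetus, and newborn 4 lay within the fetal range. The change of -0.42 passed (SE 0.12, adjusted p = 0.0214). It did not pass with normexp, at -0.27 with no offset (adjusted p = 0.111). The mean of both probes changed by -0.25 (exact permutation test, two-sided, p = 0.0146), which rests on the dim probe. Which of the SLC16A1 probes reports the transcript was not tested.

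**Figure D2:**
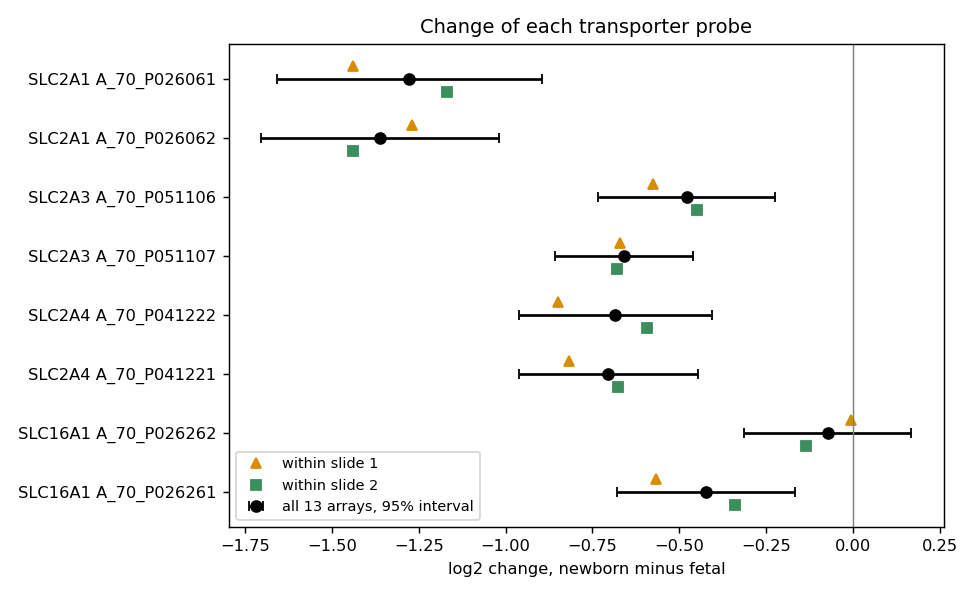
Log2 change, newborn minus fetal, of each of the 8 probes. Black points and bars give the value and 95% interval over all 13 arrays, triangles the change within slide 1 and squares the change within slide 2. All values lie below 0, and only the interval of SLC16A1 A_70_P026262 crosses it.

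The changes of the glucose carriers had the same sign on each slide. SLC2A1 A_70_P026061 changed by -1.44 within slide 1 and -1.17 within slide 2, and A_70_P026062 by -1.27 and -1.44. SLC2A4 A_70_P041222 changed by -0.85 within slide 1 and -0.59 within slide 2. SLC2A3 A_70_P051106 changed by -0.57 and -0.45, and A_70_P051107 by -0.67 and -0.68. SLC16A1 A_70_P026262 changed by -0.01 and -0.14. Within slide 2, which held 2 fetal arrays, none of the 8 transporter probes passed, and 23 probes of the whole array did.

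In a model with age and sex, 0 of the 8 probes passed for sex, against 0.00975% of all tested probes. For SLC2A1 A_70_P026061 the male minus female difference was 0.19 (95% interval -0.20 to 0.59), and for SLC2A4 A_70_P041222 it was 0.07 (95% interval -0.23 to 0.36). For a difference of the age change between the sexes, 0 of the 8 probes and 0 of all 10257 passed in limma, with 507 of the 10257 at an unadjusted p under 0.05. For SLC2A1 A_70_P026061 males minus females gave 0.38, with a wide interval of -0.42 to 1.18.

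Whether the transporters changed to unequal degrees was asked with the log2 ratio of their brightest probes on the same array. A ratio compares 2 probes of different brightness, so its level is not a ratio of transcripts, and only its difference between the groups is read. Of 6 pairs 5 passed an exact permutation test over 1716 splits of the arrays, two-sided, adjusted over the 6 pairs. The share of other probe pairs on the array that would pass was not computed. Of single tested probes 23.1% passed for age in limma after adjustment over all 10257, and 3877 had an unadjusted p under 0.05. Those values come from another test with another adjustment, so they do not give the share for pairs. The pairs are not separate evidence, since each carrier enters several of them, and the SLC2A1 probe lay near background. SLC2A1 over SLC2A4 had ratios of -8.27 to -7.70 in newborns and -7.62 to -7.24 in fetuses, and 7 of 7 newborns lay below every fetus. Its change was -0.59 (exact permutation test, adjusted p = 0.0035). SLC2A1 over SLC2A3 changed by -0.80, again with 7 of 7 newborns below every fetus (exact permutation test, adjusted p = 0.0035). With normexp at the median background of the array and an offset of 50 units, both of these changes took the opposite sign, at 0.36 and 0.18. Those values did not pass (exact permutation test, adjusted p = 0.052 and 0.094). With no offset both changes kept their sign, at -0.23 and -0.41. With the other SLC2A1 probe, an alternative chosen after the data were seen, they were -0.68 and -0.88.

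**Figure D3:**
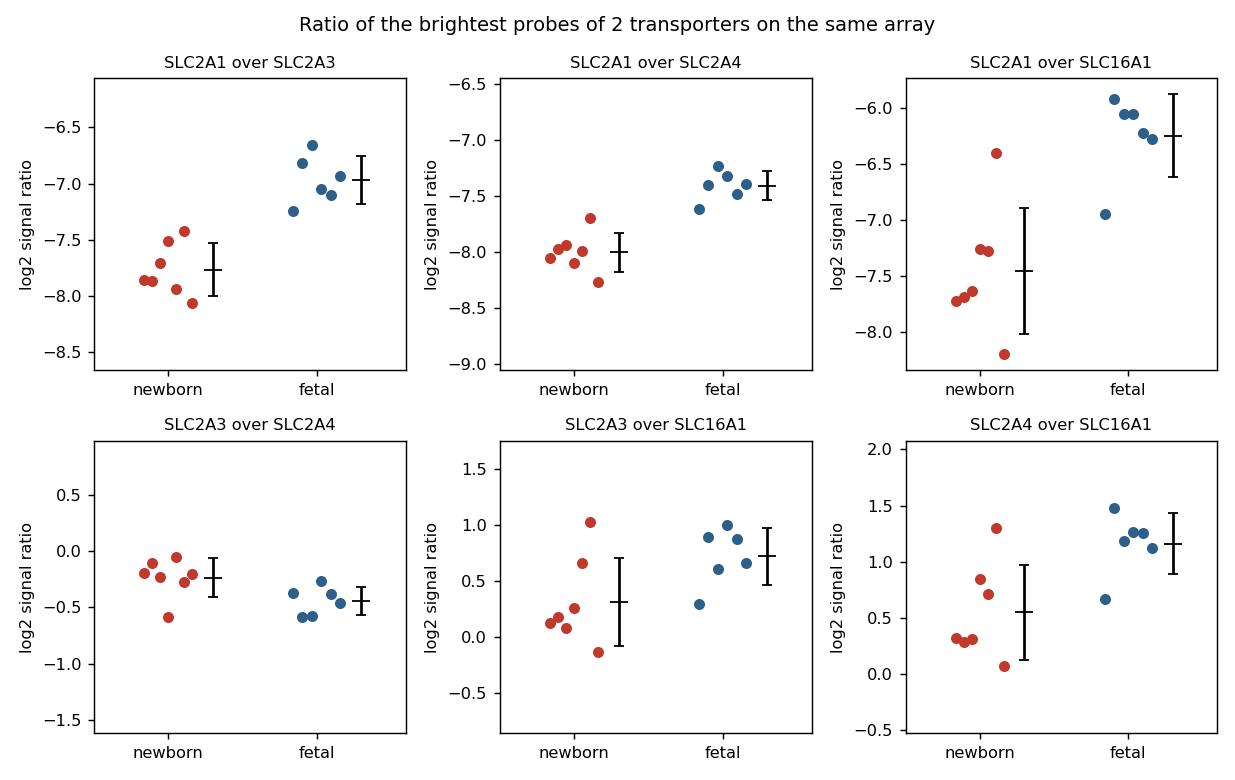
Log2 ratio of the brightest probes of 2 transporters on each array, newborn on the left and fetal on the right, on axes of equal span, with the mean and SD. In the SLC2A1 over SLC2A3 and SLC2A1 over SLC2A4 panels the groups do not overlap, and in the other 4 they do.

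Against the lactate carrier, SLC2A1 over SLC16A1 changed by -1.21, with 6 of 7 newborns below every fetus (exact permutation test, adjusted p = 0.00583). It did not pass with normexp and an offset of 50 units, at -0.21 with the median background of the array (adjusted p = 0.203) and -0.33 with the background of each spot (adjusted p = 0.733). SLC2A4 over SLC16A1 had ratios of 0.07 to 1.296 in newborns and 0.66 to 1.48 in fetuses and changed by -0.61 (exact permutation test, adjusted p = 0.0289). The call was lost without newborn 1, 2, 3 or 7 or fetal 2, where the change lay between -0.57 and -0.53. SLC2A3 over SLC16A1 changed by -0.41 and missed the threshold (exact permutation test, adjusted p = 0.0583). It passed without newborn 6, at -0.52, or without fetal 1, at -0.49.

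Between the bright glucose carriers, SLC2A3 over SLC2A4 had ratios of -0.58 to -0.05 in newborns and -0.58 to -0.27 in fetuses. Its change of 0.21 passed narrowly (exact permutation test, adjusted p = 0.0448), with 5 of 7 newborns above every fetus and 1, newborn 4, below every fetus. The call was lost without any one of newborn 1, 2, 3, 5 or 7 or fetal 2, 3, 5 or 6, at 0.18 to 0.22. It was also lost with slide as a block, with sex as a covariate and in the authors' deposited values.

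Likeness among animals of the same group was described with correlations, and it differed between probes of the same gene. After subtracting each group's mean, SLC2A1 A_70_P026061 correlated with SLC2A4 A_70_P041222 at r = 0.924 over the 13 arrays and with SLC2A3 A_70_P051106 at r = 0.783. Counting each gene once, by its highest among 842 candidate probes of named genes, these were the highest and the second highest. The near-duplicate SLC2A4 probe A_70_P041221 lay between those 2 values, at r = 0.831. LOC100125615 came next as a gene, at r = 0.768. For SLC2A4 the next after SLC2A1 were ARG2, a mitochondrial arginase, at r = 0.805 and LOC100125615 at r = 0.801. For SLC2A3 the highest was the fibroblast growth factor gene FGF7 at r = 0.849. All of these were picked as the highest among the candidates, and such a search alone gives high values. The points share arrays and the same scaling, and newborn 6, with the highest level of any newborn on all 3 carriers' brightest probes, is among them. Without newborn 6, over 12 arrays, SLC2A1 A_70_P026061 correlated at r = 0.85 with SLC2A4 and at r = 0.528 with SLC2A3, and SLC2A3 with SLC2A4 at r = 0.537. Between SLC2A1 A_70_P026061 and SLC2A3 A_70_P051106 it was 0.908 among newborns and 0.379 among fetuses.

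The other probes of SLC2A1 and SLC2A3 gave lower values. SLC2A3 A_70_P051107 correlated at r = 0.318 with SLC2A1 A_70_P026061 and at r = 0.292 with SLC2A4 A_70_P041222, or at 0.123 and 0.104 without newborn 6. A_70_P026062 shares all but 1 base with A_70_P026061, and their deviations from the group means correlated at r = -0.03 over the 13 arrays. Its correlation was -0.21 with SLC2A4 A_70_P041222 and -0.03 with SLC2A3 A_70_P051106. The same comparison of near-duplicates gave r = 0.94 for the 2 SLC2A4 probes, and 0.803 for the 2 SLC2A3 probes that share few bases. So within groups the likeness of SLC2A1 to SLC2A4 was seen on 1 of the 2 SLC2A1 probes, both near background, while the difference between the groups was seen on both.

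**Figure D4:**
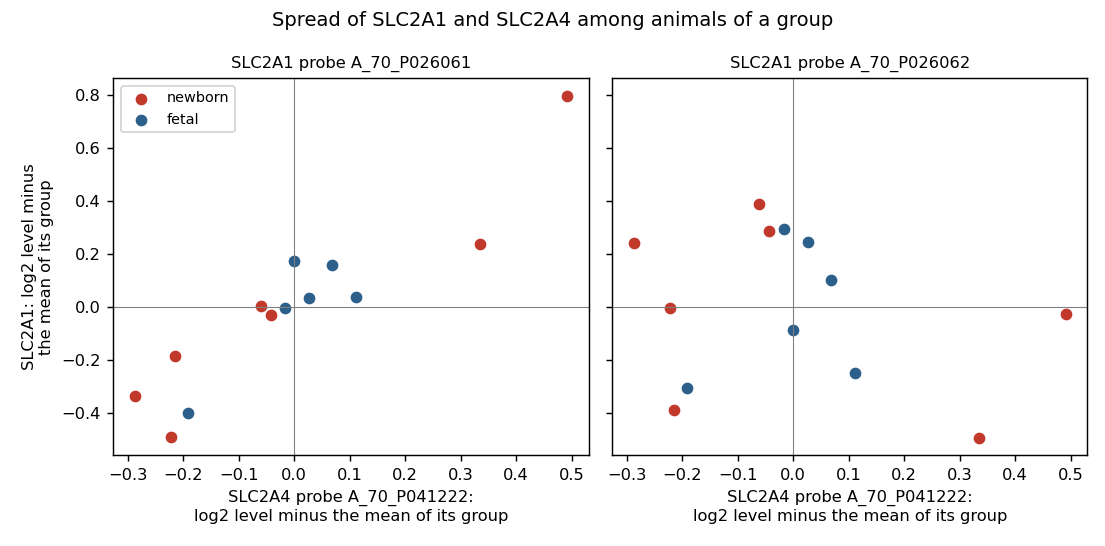
Deviation of each array from the mean of its group, SLC2A1 on the vertical and SLC2A4 A_70_P041222 on the horizontal axis, both on the log2 scale, with newborn arrays in red and fetal arrays in blue. On the left, SLC2A1 A_70_P026061 follows SLC2A4 (r = 0.924). On the right, A_70_P026062, which differs from it by a shift of 1 base, does not (r = -0.21).

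For SLC16A1 the search for likeness gave other genes. Within groups its bright probe correlated most with SLC25A5, an ADP/ATP carrier of mitochondria, at r = 0.85. Next came SMAD5, a transcription factor of bone morphogenetic protein signals, at r = 0.821, and DERL1, of protein degradation at the endoplasmic reticulum, at r = 0.818. These were picked as the highest of 842 candidate probes over 13 arrays, each gene counted once, and such a search alone gives high values. They were not computed without newborn 6. The correlation of the bright SLC16A1 probe was -0.48 with SLC2A4 A_70_P041222, or -0.27 without newborn 6. With SLC2A1 it was -0.62 on A_70_P026061 and -0.32 on A_70_P026062. With its own dim probe it was 0.208.

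Few other genes of sugar and lactate transport could be read. Of 11 other sugar transporters 4 were on the array by name and 1 was tested. SLC2A8, an intracellular member of the SLC2A family, fell by 0.60 (SE 0.142, adjusted p = 0.00925), and its other probe fell by 0.43 (adjusted p = 0.017). SLC2A2, the liver form, was well above background on 3 of 7 newborn and 1 of 6 fetal arrays, and SLC5A1, the sodium-coupled carrier of gut, on none of either. Of 16 other monocarboxylate transporters and their partners 0 were found by name. SLC5A8, a sodium-coupled monocarboxylate carrier chosen after its values were seen, differed by 0.30 and missed the threshold (SE 0.135, adjusted p = 0.123).

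Over the 587 named genes, each by its brightest probe, 9.03% passed and were lower in newborns and 14.8% passed and were higher, with a median change of 0.10. Of 5 tested genes of glucose phosphorylation and lactate use, 1 fell and 0 rose, with a median change of 0.03. HK1, the hexokinase that traps glucose inside the cell, fell by 0.45 (SE 0.105, adjusted p = 0.00815). LDHA, a lactate dehydrogenase subunit, differed by 0.49 on its brightest probe without passing (SE 0.186, adjusted p = 0.0722), and its other probe rose by 0.51 (adjusted p = 0.0488). ENO3 and PFKL of glycolysis and GAPDH differed by 0.23, 0.03 and 0.02 and did not pass.

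Of 5 tested genes of the insulin signal and SLC2A4 traffic, 0 rose and 0 fell by limma, with 3 at an unadjusted p under 0.05, as were 3877 of the 10257 tested probes. IGF1R, a growth factor receptor related to the insulin receptor, differed by -0.43 (SE 0.157, limma adjusted p = 0.0587), and its other probe by 0.07 (adjusted p = 0.762). The kinase AKT1 differed by 0.40 (SE 0.165, adjusted p = 0.0903). TXNIP, known to curb glucose uptake, differed by 0.22 (adjusted p = 0.439). Of 3 tested regulators of SLC2A4 transcription 1 fell, while 9.03% of the 587 named genes passed and were lower in newborns. It was PPARG, a nuclear receptor of fat cells, which fell by 0.54 (SE 0.174, limma adjusted p = 0.0386). That call was lost with slide as a block. The coactivator PPARGC1A differed by -0.41 on its brightest probe (adjusted p = 0.0943), and 1 of its other probes passed at -0.40 (adjusted p = 0.0378).

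Of 6 tested hypoxia-inducible genes and regulators 1 fell and 0 rose, with a median change of 0.13. Over the 587 named genes 9.03% passed and were lower in newborns and 14.8% passed and were higher. VEGFA, a vascular growth factor, fell by 0.67 (SE 0.166, adjusted p = 0.011), and every newborn array lay below every fetal array. HIF1A, the oxygen-regulated transcription factor, differed by 0.16 (adjusted p = 0.456), and its partner ARNT by -0.45 (adjusted p = 0.092).

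In pieces of tissue, fewer cells of a type and less RNA per cell cannot be told apart. Markers of several cell types differed between the groups, some lower and some higher in newborns. Of 4 tested endothelial markers 3 fell, while 9.03% of the 587 named genes passed and were lower in newborns. PECAM1, an adhesion molecule, fell by 0.51, and the VEGF receptors KDR and FLT1 fell by 0.46 and fell by 0.82. The summed level of the 4 relative to the 75th percentile was 4.02 to 6.61 on newborn arrays and 5.89 to 7.41 on fetal arrays. Of the erythroid markers the globin HBB fell by 1.53 and the globin chaperone AHSP fell by 1.73, and both were all that could be tested. The AHSP probe was well above background on 2 of 7 newborn and 5 of 6 fetal arrays. It thus entered the test mainly through the group where it was higher, and its newborn values lay near background. The sums of HBB and AHSP were 25.4 to 68.6 in newborns and 53.7 to 258 in fetuses. MYH7 fell by 1.14 (adjusted p = 0.000775), with levels of 7.81 to 17.5 in newborns and 21.98 to 26.02 in fetuses, and no overlap.

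Other markers moved as well. CNN1, of smooth muscle, rose by 1.83, and its level was 9.81 to 84.0 in newborns and 3.63 to 7.17 in fetuses. Of 3 tested macrophage markers CD14, FCER1G and FCGR1A all rose, while 14.8% of the 587 named genes passed and were higher in newborns. Their sums were 1.04 to 2.18 in newborns and 0.71 to 1.05 in fetuses. The FCGR1A probe was well above background on 7 of 7 newborn and 2 of 6 fetal arrays. It thus entered the test through the group where it was higher, and its fetal values lay near background. Both tested lymphocyte markers, CD3D and CD3E, fell, while 9.03% of the 587 named genes passed and were lower in newborns. Their brightest probes were well above background on 2 and 5 of 7 newborn arrays and on 5 and 6 of 6 fetal arrays. Of 3 fibroblast markers COL3A1 fell, by 0.37 on its brightest probe (limma adjusted p = 0.047). Its other probes changed by -0.19 and -0.28 and did not pass (adjusted p = 0.374 and 0.143). The skeletal muscle gene TNNC2 ranged from 0.73 to 39.3 in newborns and 0.61 to 14.3 in fetuses and did not pass, while MYH1 and MYH2 were not well above background on any array. Both tested adipocyte markers, LEP and PLIN1, did not pass. The part of these cell types in the changes of the transporters was not tested.

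**Figure D5:**
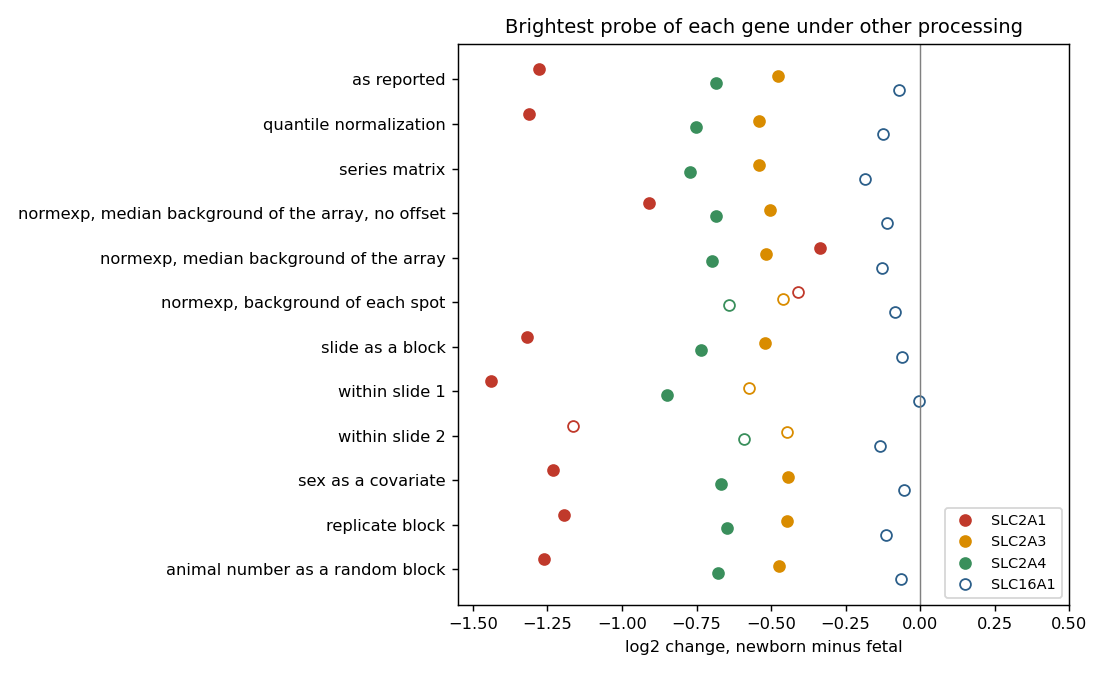
Log2 change, newborn minus fetal, of the brightest probe of each gene (horizontal axis) under 12 ways of processing (vertical axis). Filled points passed an adjusted p of 0.05 and open points did not. SLC2A3 lies between -0.57 and -0.44 and SLC2A4 between -0.85 and -0.59, while SLC2A1 ranges from -1.44 to -0.33 and is not among the probes of the series matrix.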

How the data were processed

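Intensity values of spots were deposited as scanner output of Agilent's Feature Extraction software, per the file headers. The processed intensity had its background subtracted and a spatial trend removed by that software, per the file headers. The authors' deposited series matrix holds log2 values of 7041 probes, judged from the values; how they were normalized is not given in those sources. Its columns have medians near 8.70, and it served as an alternative. The dye is Cy3 in the labels' protocols and Cy5 in the label field, and the files hold 1 green channel.

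Each processed signal was divided by its array's 75th percentile, taken over non-control spots, and put on the log2 scale. Control spots and outlier spots were left out, and spots of a probe were averaged. Probes well above background on at least 6 arrays were tested, 10257 of 15008, and 1446 probes carried a single gene name. The brightest probe stood for a gene. Groups were compared with limma 3.58.1 in R 4.3.3 (lmFit and eBayes, two-sided, Benjamini-Hochberg over tested probes), after the steps were tested on simulated data. Tables and figures used Python 3.11.15, pandas 2.3.3, numpy 2.4.6, matplotlib 3.10.9 and version 1.17.8 of data.table. The depth of an array is its signal over background, and the number of arrays limits the precision.

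The transporters, the 6 pathway lists and the 11 cell type lists were chosen with earlier results of these data known. Named genes are every transporter probe, list members that passed (or the 2 with the smallest p), passing cell type markers and the 3 genes most like each transporter; others named in lists were chosen after their values were seen. No array pair held identical values. Separate animals are given by the labels. With animal number as a random block the consensus correlation was 0.178 and 1717 probes passed, against 2366 without it. The brightest probes of SLC2A1, SLC2A3 and SLC2A4 still passed. The permutation tests took the arrays as exchangeable, so their p-values may be too small if animals sharing an animal number are related. Newborn and fetal arrays of the same replicate number did not deviate together (r -0.07 to 0.05). No pairing by replicate number was seen there, but no reference from arrays of unlike number was computed. The alternatives were other background corrections, quantile normalization, the series matrix, probe filters, slide, sex, animal number and replicate as terms, and leaving out each array.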

Additional observations from a re-analysis of the deposited data

Results flagged for a closer look

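In 28 groups of values (the levels of the 8 probes and the 6 log ratios, in newborns and in fetuses), 3 had an array whose gap to its nearest neighbour was large for the range of its group. Chance gives about 1 in 20. Fetal 1 was the lowest fetus for SLC2A1 A_70_P026061, at -3.19, while on the near-duplicate probe it was also the lowest, at -3.12, but not set apart. Fetal 1 was also the lowest fetus for the log ratio of SLC2A1 over SLC16A1, at -6.95. Newborn 4 was the lowest newborn for the log ratio of SLC2A3 over SLC2A4, at -0.58. Without fetal 1 the SLC2A1 change was -1.36 and past the threshold (limma adjusted p = 0.000672).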

How the results depend on the processing

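Of 432 alternatives run, 364 were classed as the same, and 48 kept the direction and lost the call. Another 4 gained a call, 12 moved a count and 4 reversed in sign without passing. The 364 are not all tests that held. They include counts classed as not moved, among them lists with 0 members passing, and ratios within a slide, which have a direction but no p-value. The cause of the changes below was not tested, except that fewer arrays entered the fits within a slide and that an offset shrinks dim signals by construction. With normexp at the background of each spot, SLC2A1 (-0.41), SLC2A3 (-0.46) and SLC2A4 (-0.64) did not pass, and 48 of all probes did. Within slide 2 the changes were -1.17, -0.45 and -0.59 and did not pass, with 23 of all probes passing, and within slide 1 SLC2A3 changed by -0.57 (adjusted p = 0.0686) with 356 passing. The mean of the SLC16A1 probes gave -0.25.

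The log ratios of SLC2A1 over SLC2A3, over SLC2A4 and over SLC16A1 are given in that order. Normexp at each spot gave 0.053, 0.23 and -0.33, and at the median of the array 0.18, 0.36 and -0.21, none passing. SLC2A3 over SLC2A4 gave 0.18 with each normexp setting, 0.23 in the series matrix, and 0.21 with slide or sex as a term, without passing. SLC2A4 over SLC16A1 gave -0.56 and -0.57 with the normexp settings that have an offset, without passing, and SLC2A3 over SLC16A1 passed at -0.39 with no offset. The replicate block uses 6 of the 7 newborn arrays and numbers by which no pairing of the samples was seen. It called 1326 probes, and 0 of the brightest glucose carrier probes lost their call. The ratios became -0.75, -0.55 and -1.08 for SLC2A1, 0.20 for SLC2A3 over SLC2A4 and -0.53 for SLC2A4 over SLC16A1, none passing. Labels move only within 6 pairs there, so the permutation test has few splits and cannot reach a small p. The adjusted p was 0.0625 for each SLC2A1 ratio, so not passing does not show a lost change.

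Leaving out 1 array at a time, the changes ranged from -1.41 to -1.20 for SLC2A1, -0.55 to -0.43 for SLC2A3, -0.77 to -0.64 for SLC2A4 and -0.13 to -0.01 for SLC16A1, and 1726 to 3116 probes passed. The ratios ranged from 0.18 to 0.26 for SLC2A3 over SLC2A4, -0.74 to -0.53 for SLC2A4 over SLC16A1 and -0.52 to -0.33 for SLC2A3 over SLC16A1. List counts moved by 1 at most: normexp at each spot called 0 of the sugar transporters, glucose and lactate, SLC2A4 regulator and hypoxia members, slide as a block 0 regulators, and counting any probe of a gene gave 1 riser (LDHA) in each list that holds it and 2 falling regulators. Ratios were not run with animal number as a block, the other eBayes or the probe filters, and SLC2A1 has no value in the series matrix or among probes well above background on all 13 arrays.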
